A study of Rattus norvegicus with 8 samples.

Results

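The lysosome genes described here are 36 genes named by symbol: the soluble hydrolases of the organelle, the proteins of its membrane, subunits of the proton pump that acidifies it, and a pair of genes that act on it from outside these classes, Tfeb and Grn. They were picked by name, with earlier results of these data known. Each was read from the deposited gene table of 27742 rows, taking the row of highest mean where a symbol had more than 1. A row was found for 35 of the 36, and Tpp1, a lysosomal peptidase, had no row under that symbol. Ppt1 and Asah1 had further rows of low values, which were set aside.

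The RNA came from the thoracic aorta of male wild type Sprague Dawley rats, labelled as 12 weeks old and, in the treatment notes, as weighing 180 to 200 g. Glyceryl trinitrate, or nitroglycerin, a nitric oxide donor used as a vasodilator, was injected under the skin at 100 mg/kg, 3 times a day for 3 days. Control rats received the ethanol vehicle on the same schedule. The title of the study concerns the tolerance that follows repeated dosing, and the comparison asks which aortic RNAs differ at the end of it. There were 4 libraries in each group, made from total RNA after depletion of ribosomal RNA. Whether a library stands for its own rat is not given in the labels, and the p-values then rest on library-to-library spread alone, which may be partly technical. The tissue is a whole vessel wall: in such bulk RNA, fewer cells of a type and less RNA per cell cannot be told apart.

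Lysosomes are acidic compartments in which proteases, glycosidases and lipases break down material delivered by endocytosis and autophagy. Most of the soluble enzymes are made in the endoplasmic reticulum, tagged with mannose 6-phosphate and carried in by receptors, while a proton-pumping ATPase keeps the lumen acidic and membrane proteins release ions and digestion products. The transcription factor TFEB and its relatives bind a palindromic element known as the CLEAR motif, whose core is CACGTG, in the promoters of many of these genes in human and mouse cells. They are held in the cytoplasm by the kinase complex mTORC1 when nutrients are plentiful. In the artery wall, macrophages and smooth muscle cells use lysosomes to process lipoprotein cholesterol, and secreted cathepsins can cut elastin and collagen.

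Levels are FPKM, fragments scaled to transcript length and to the mapped total of the library. Differences are nitroglycerin minus control on log2(FPKM + 1), tested with limma over the 12977 rows that reached 1 FPKM in at least 4 of the 8 libraries, with Benjamini-Hochberg adjustment over all of them and a threshold of 0.05. All 35 measured genes passed that filter. Most of the transcriptome sat higher in the nitroglycerin libraries: the median difference over all genes tested was 0.295, and 86.6% of genes lay above 0. The 100 rows of highest mean over all libraries took 51.7 to 71.4% of the summed FPKM in the control libraries. They took 47.4 to 50.4% in the nitroglycerin libraries. Each lysosomal gene is therefore also given after median-of-ratios rescaling of the libraries, which brought the median over all genes to 0.01 and the share above 0 to 52.4%. Whether the shift arose in the tissue or in the composition of the libraries was not tested.

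Mcoln1, which encodes the lysosomal calcium and cation channel TRPML1, was the gene of the set that passed the threshold, and it rose 1.81-fold in the nitroglycerin aortas. None of the other 34 passed it in either direction. As deposited, the median difference of the lysosomal genes was 0.27, against 0.295 for all genes tested. Of the 35, 15 lay above the median gene and 20 below it. After rescaling, no lysosomal gene passed. Their median was then -0.06, against 0.01 for all genes, with 12 above the median gene and 23 below. The gap between these medians was not tested. On the values as deposited, the called share was 1 of 35 for higher genes, beside a background of 1.29% of all genes tested. It was 0 of 35 for lower genes, beside 0.0616%.

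Without adjustment, 7 of the 35 had limma p-values under 0.05, all higher, or 20.0%, where the background was 34.1%. None was lower, where the background was 1.02%. This count depended on single libraries. It was 18 of 35, or 51.4%, without control replicate 2, when the background was 38.8%, and 2 of 35, or 5.71%, without nitroglycerin replicate 3, when the background was 25.9%. Without control replicate 1 or control replicate 3 it was 4, or 11.4%, beside 24.5% and 29.0%. On leaving out each library, the share lay over the background only without control replicate 2, and under it otherwise. It also lay over the background without a filter and with array weights, as given below. In 10 of the 35, or 28.6%, every nitroglycerin library lay above every control library (background 24.2%), and in none did every nitroglycerin library lie below (background 0.478%). The share of the lysosomal genes separated in this way was close to that of the transcriptome. On the rescaled values, 0 of 35 passed the adjusted threshold (background 0.0308% higher and 0.1% lower). Mcoln1 was then the single gene with an unadjusted p under 0.05 on the higher side (background 5.5%), and Grn the single one on the lower side (background 6.44%). Rescaled groups stood apart for Mcoln1 on the higher side (background 3.78%) and for Lamp1 and Grn on the lower side (background 4.45%).

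**Figure D1:**
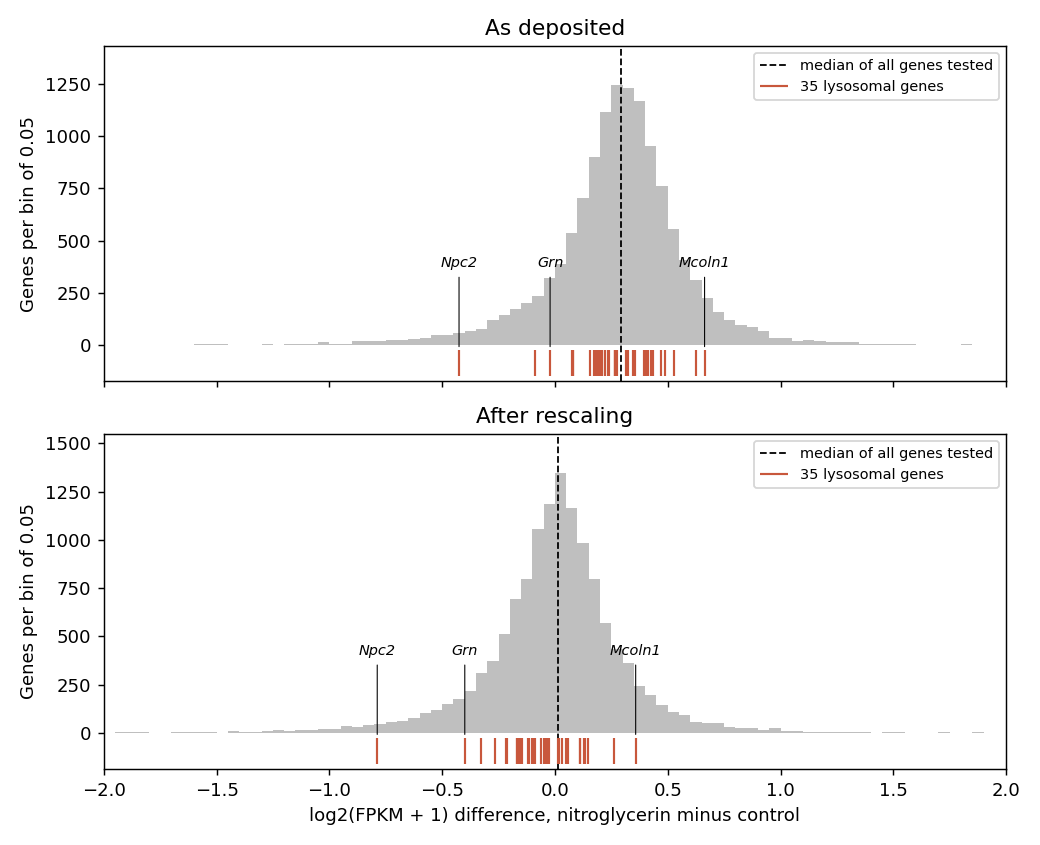
Distribution of the log2(FPKM + 1) differences, nitroglycerin minus control, over all 12977 genes tested, as deposited and after rescaling, with the 35 lysosomal genes marked; 26 and 25 genes beyond ±2 are not drawn. As deposited, 32 of the 35 lie above 0 and around the median of all genes at 0.295; after rescaling, 12 lie above 0 and 23 below.

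The 6 membrane proteins had a median difference of 0.38 as deposited, and 5 of them lay above the median gene. After rescaling their median was -0.002, with 3 above the median gene and 3 below. Mcoln1 (row MSTRG.4895) had 2.38, 2.60, 2.91 and 2.89 FPKM in the control libraries and 5.28, 3.80, 4.89 and 5.59 FPKM in the nitroglycerin libraries. The groups did not overlap, and the nitroglycerin library nearest to the controls was replicate 2. The means were 2.70 ± 0.254 and 4.89 ± 0.781 FPKM (SD, n = 4 each). The log2 difference was 0.66 (SE 0.13, limma adjusted p = 0.0492), 0.37 above the median gene. After rescaling the log2 difference was 0.36, with a limma adjusted p of 0.211 and groups that still did not overlap. The ratio of the group mean FPKM was 1.81 as deposited and 1.38 after rescaling. Leaving out each library in turn gave differences of 0.61 to 0.76, and the adjusted limma p ran from 0.0437 without nitroglycerin replicate 2 to 0.136, so the call was kept in 1 of the 8 such fits.

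Lamp1 and Lamp2, the heavily glycosylated proteins that line the lysosomal membrane, also had groups that did not overlap. Lamp1 had 23.6, 27.5, 25.0 and 24.8 FPKM in the controls and 28.1, 28.7, 29.8 and 30.5 FPKM after nitroglycerin. Its difference was 0.21 (limma adjusted p = 0.206), under that of the median gene. After rescaling the order of its groups turned over, with controls at 27.4 to 31.8 and nitroglycerin at 24.3 to 26.9 rescaled FPKM and a difference of -0.17 (limma adjusted p = 0.494). The direction given for Lamp1 therefore depends on how the libraries are scaled. Lamp2 ran from 12.2 to 15.6 FPKM in the controls and from 15.7 to 24.0 FPKM after nitroglycerin, with a difference of 0.32 as deposited and -0.05 after rescaling.

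Scarb2 (LIMP-2), which carries glucocerebrosidase to lysosomes, had 28.6, 29.8, 35.0 and 34.2 FPKM in the controls and 31.0, 37.9, 44.9 and 65.0 FPKM after nitroglycerin. The spread within the nitroglycerin group was wider than the gap between the group means, and the adjusted limma p was 0.187. The tetraspanin Cd63 had means of 42.3 ± 8.30 and 53.5 ± 7.14 FPKM, and Laptm4a, a small transmembrane protein of late endosomes and lysosomes, 73.5 ± 18.4 and 97.1 ± 17.8 FPKM (SD, n = 4 each). Both overlapped between groups and did not pass.

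The vacuolar ATPase subunits had a median difference of 0.31. Atp6v0d1, which couples the membrane sector to the stalk, had 6.15, 9.17, 8.03 and 9.01 FPKM in the controls and 9.93, 14.3, 10.8 and 9.26 FPKM after nitroglycerin. The groups did not overlap, though the highest control and the lowest nitroglycerin library lay close together. Its difference was 0.41 (SE 0.17, limma adjusted p = 0.127), and 0.06 after rescaling. Atp6v0a1, of the membrane sector, had 3.11 ± 0.195 and 3.76 ± 0.373 FPKM (SD, n = 4 each), again without overlap, and a difference of 0.21. Atp6v1b2 and the catalytic subunit gene Atp6v1a, both of the cytoplasmic sector, overlapped between groups, with differences of 0.43 and 0.08. None of the 4 passed the threshold.

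Promoter windows could be matched by symbol for 30 of the 36 genes, from RefSeq on build GRCr8, each covering 250 bases before to 50 bases after the annotated start. The core CACGTG was present in 7 of the 30 windows, or 23.3%, against 6.42% of 33469 windows of all genes and 9.35% of 8280 windows of tested symbols. Its extension TCACGTGA was present in 4, or 13.3%, against 0.777% and 1.78%. Both words read the same on either strand, and every TCACGTGA holds a CACGTG. Median GC content was 59.3% in the 30 windows, 51.7% in all windows and 61.3% in those of tested symbols. The 4 genes with the extended word are given here, 5′ to 3′ on the gene's own strand, because they include the called gene and 3 others whose RNA differed less. Capitals mark CACGTG. The stretches are chr12:6358070-6358269 on the plus strand for Mcoln1, chr1:206968822-206969021 on the minus strand for Ctsd, chr16:83075064-83075263 on the minus strand for Lamp1 and chr19:50357249-50357448 on the minus strand for Atp6v0d1.
Mcoln1: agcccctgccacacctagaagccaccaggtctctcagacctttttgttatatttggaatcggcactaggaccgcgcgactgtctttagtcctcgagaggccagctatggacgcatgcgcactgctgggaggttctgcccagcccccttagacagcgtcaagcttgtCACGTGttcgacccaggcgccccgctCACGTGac
Ctsd: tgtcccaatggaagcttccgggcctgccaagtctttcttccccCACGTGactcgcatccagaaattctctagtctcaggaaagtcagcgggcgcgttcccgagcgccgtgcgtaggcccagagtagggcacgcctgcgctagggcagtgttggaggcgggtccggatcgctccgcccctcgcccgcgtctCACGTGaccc
Lamp1: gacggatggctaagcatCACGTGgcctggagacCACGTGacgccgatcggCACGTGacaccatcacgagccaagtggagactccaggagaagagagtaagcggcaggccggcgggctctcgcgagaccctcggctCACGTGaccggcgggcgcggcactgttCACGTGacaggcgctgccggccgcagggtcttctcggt
Atp6v0d1: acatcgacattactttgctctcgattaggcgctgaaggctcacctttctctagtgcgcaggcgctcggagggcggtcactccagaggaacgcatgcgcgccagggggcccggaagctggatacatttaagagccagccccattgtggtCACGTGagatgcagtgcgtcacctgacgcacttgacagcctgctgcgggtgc

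Lamp1 held 5 copies of the core, Mcoln1 and Ctsd 2 each and Atp6v0d1 a single copy. In Mcoln1 the copies ended 17 bases before the start and began 5 bases after it. Cd63, Gaa and Glb1 each had 1 copy without the extension. Across these 7 genes the log2 differences spanned 0.08 for Glb1 to 0.66 for Mcoln1, with Lamp1, which had the most copies, at 0.21. A match describes the letters of the window and not binding of any factor.

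**Figure D2:**
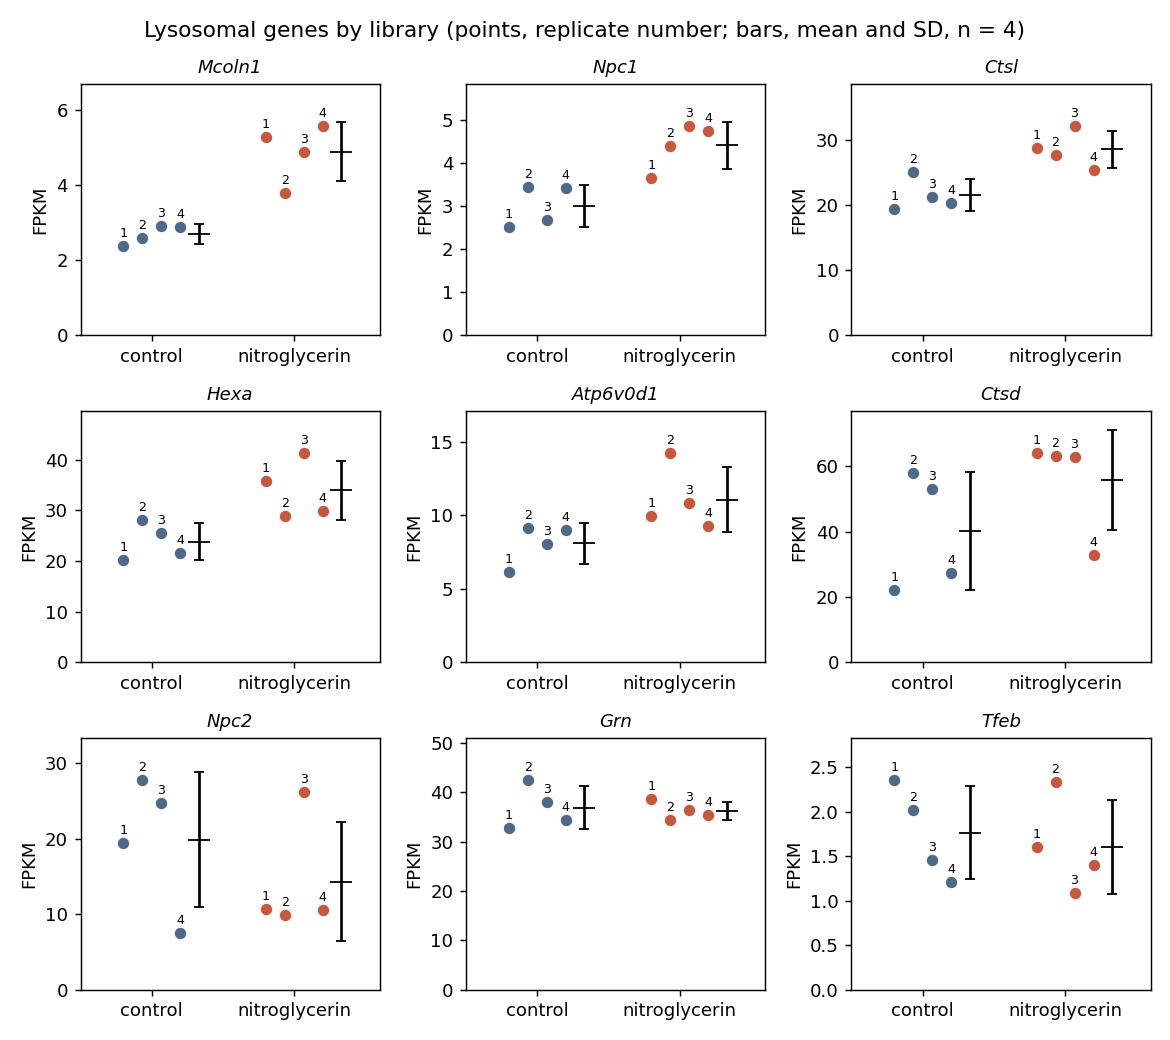
FPKM in each library for 9 lysosomal genes, 4 control and 4 nitroglycerin points a gene, with bars at the mean ± SD; each panel has its own linear axis. As deposited, Mcoln1, Npc1, Ctsl, Hexa and Atp6v0d1 show no overlap between groups, while Ctsd, Npc2, Grn and Tfeb overlap. Over all 35 genes, 10 show no overlap. After rescaling, not drawn here, Npc1, Ctsl, Hexa and Atp6v0d1 overlap and Grn does not.

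Among 9 protease genes, 8 were measured and none passed the threshold; their median difference was 0.31, and -0.06 after rescaling. Ctsl, cathepsin L, a cysteine endopeptidase that can degrade elastin, had 19.5, 25.1, 21.3 and 20.4 FPKM in the controls and 28.9, 27.8, 32.2 and 25.5 FPKM after nitroglycerin. Every nitroglycerin library lay above every control, with means of 21.5 ± 2.46 and 28.6 ± 2.82 FPKM (SD, n = 4 each). The difference was 0.39 (SE 0.13, limma adjusted p = 0.0883), and on rescaled values, where the groups overlapped, it was 0.02.

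Ctss, cathepsin S, an elastinolytic protease abundant in macrophages, had 4.81, 8.14, 5.87 and 7.42 FPKM in the controls and 10.4, 6.62, 11.7 and 9.32 FPKM after nitroglycerin. Nitroglycerin replicate 2 lay within the control range, and the adjusted limma p was 0.131. The row for Ctss holds assembled transcripts and no annotated one. Ctsd, cathepsin D, the main aspartic protease of lysosomes, had 22.1, 58.0, 53.0 and 27.3 FPKM in the controls and 64.1, 62.9, 62.9 and 32.8 FPKM after nitroglycerin. Control replicates 1 and 4 and nitroglycerin replicate 4 stood well under the other 5 libraries. The means of 40.1 ± 18.0 and 55.7 ± 15.3 FPKM (SD, n = 4 each) differed by less than the control SD, and the adjusted limma p was 0.292.

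Ctsb, cathepsin B, was the most abundant protease of the set, at 117 ± 24.7 and 148 ± 10.7 FPKM (SD, n = 4 each), with a difference of 0.35 as deposited and -0.03 after rescaling. The other proteases were Ctsa, a carboxypeptidase that also stabilises galactosidase and neuraminidase, the aminopeptidase Ctsh, the collagen-cleaving Ctsk and the carboxypeptidase Ctsz. Their differences lay between 0.18 and 0.26 as deposited and between -0.16 and -0.09 after rescaling, and the groups overlapped for each of the 4.

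The 8 glycosidases, which trim sugars from glycoproteins, glycolipids and glycogen, had a median difference of 0.22, and 7 of them lay below the median gene. None passed. Hexa, the alpha subunit of the hexosaminidase that degrades GM2 ganglioside, was the exception above the median gene. It had 20.1, 28.1, 25.5 and 21.6 FPKM in the controls and 35.7, 28.9, 41.4 and 29.8 FPKM after nitroglycerin. The groups did not overlap, with a gap of under 1 FPKM between the highest control and the lowest nitroglycerin library. Its difference was 0.49 (SE 0.17, limma adjusted p = 0.0893), and 0.11 after rescaling.

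Fuca1, the lysosomal fucosidase, had narrower groups that also did not overlap, 9.34 to 11.6 FPKM in the controls and 12.0 to 13.1 FPKM after nitroglycerin. Its difference was 0.24 as deposited and -0.12 after rescaling. Gaa, the glycogen-degrading acid glucosidase, and Man2b1, the acid mannosidase, had differences of 0.27 and 0.20. The galactosidases Glb1 and Gla were nearest to 0, at 0.08 and 0.07, with Gla listed at 1.84 ± 0.546 and 1.97 ± 0.445 FPKM (SD, n = 4 each). Gusb and Neu1, which remove glucuronic and sialic acid, had differences of 0.15 and 0.23 and overlapping groups.

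The 7 genes for lipid and sterol handling had a median difference of 0.27, with no call. Npc1 and Npc2 work in series to move cholesterol out of the lysosome, Npc2 as the soluble carrier and Npc1 as the membrane protein that receives it, and their values lay on opposite sides of 0. Npc1 had 2.51, 3.43, 2.67 and 3.41 FPKM in the controls and 3.65, 4.38, 4.86 and 4.73 FPKM after nitroglycerin. The groups did not overlap, and the difference was 0.44 (SE 0.13, limma adjusted p = 0.0706), against 0.13 after rescaling. Npc2 had 19.4, 27.8, 24.7 and 7.55 FPKM in the controls and 10.7, 9.89, 26.2 and 10.6 FPKM after nitroglycerin. Control replicate 4 sat under all the nitroglycerin libraries and nitroglycerin replicate 3 among the high controls, so the groups overlapped across almost their whole range. Its difference was -0.43 (SE 0.43, limma adjusted p = 0.473), and -0.79 after rescaling (limma adjusted p = 0.513).

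Smpd1, acid sphingomyelinase, had 8.97, 22.6, 15.4 and 9.71 FPKM in the controls and 20.7, 23.9, 26.0 and 15.1 FPKM after nitroglycerin. Its difference of 0.62 was second in size to that of Mcoln1, but the groups overlapped and the adjusted limma p was 0.157. The lowest 3 libraries for Smpd1 were control replicates 1 and 4 and nitroglycerin replicate 4, the same 3 that were lowest for Ctsd. Asah1, acid ceramidase, acts on the ceramide that Smpd1 makes and had 8.03 ± 1.41 and 10.2 ± 0.957 FPKM (SD, n = 4 each), with a difference of 0.32. Psap, the precursor of the saposins that present lipids to these enzymes, was the most abundant gene of the set, at 158.9 ± 13.7 and 178.7 ± 5.56 FPKM (SD, n = 4 each). Its groups did not overlap, and its difference was 0.17 as deposited and -0.21 after rescaling. Ppt1, which removes fatty acids from proteins, and Lipa, the acid lipase for cholesteryl esters, both had differences of 0.27 and overlapping groups.

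The 2 remaining genes had differences close to 0 as deposited. Tfeb had 2.36, 2.02, 1.46 and 1.21 FPKM in the controls and 1.61, 2.33, 1.09 and 1.40 FPKM after nitroglycerin, and was the least abundant gene of the set. The ranges were nearly the same, and the difference was -0.09 (SE 0.19, limma adjusted p = 0.749). TFEB is controlled largely by where the protein is in the cell, which RNA levels do not record. Grn, which encodes progranulin, a secreted glycoprotein cut into granulins in lysosomes, had 32.7, 42.5, 38.1 and 34.4 FPKM in the controls and 38.6, 34.4, 36.4 and 35.4 FPKM after nitroglycerin. All 4 nitroglycerin libraries lay inside the control range, with a difference of -0.02 (limma adjusted p = 0.910). After rescaling the groups no longer overlapped, at 38.0 to 44.0 and 29.1 to 33.4 rescaled FPKM, and the difference was -0.40 (SE 0.09, limma adjusted p = 0.150).

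**Figure D3:**
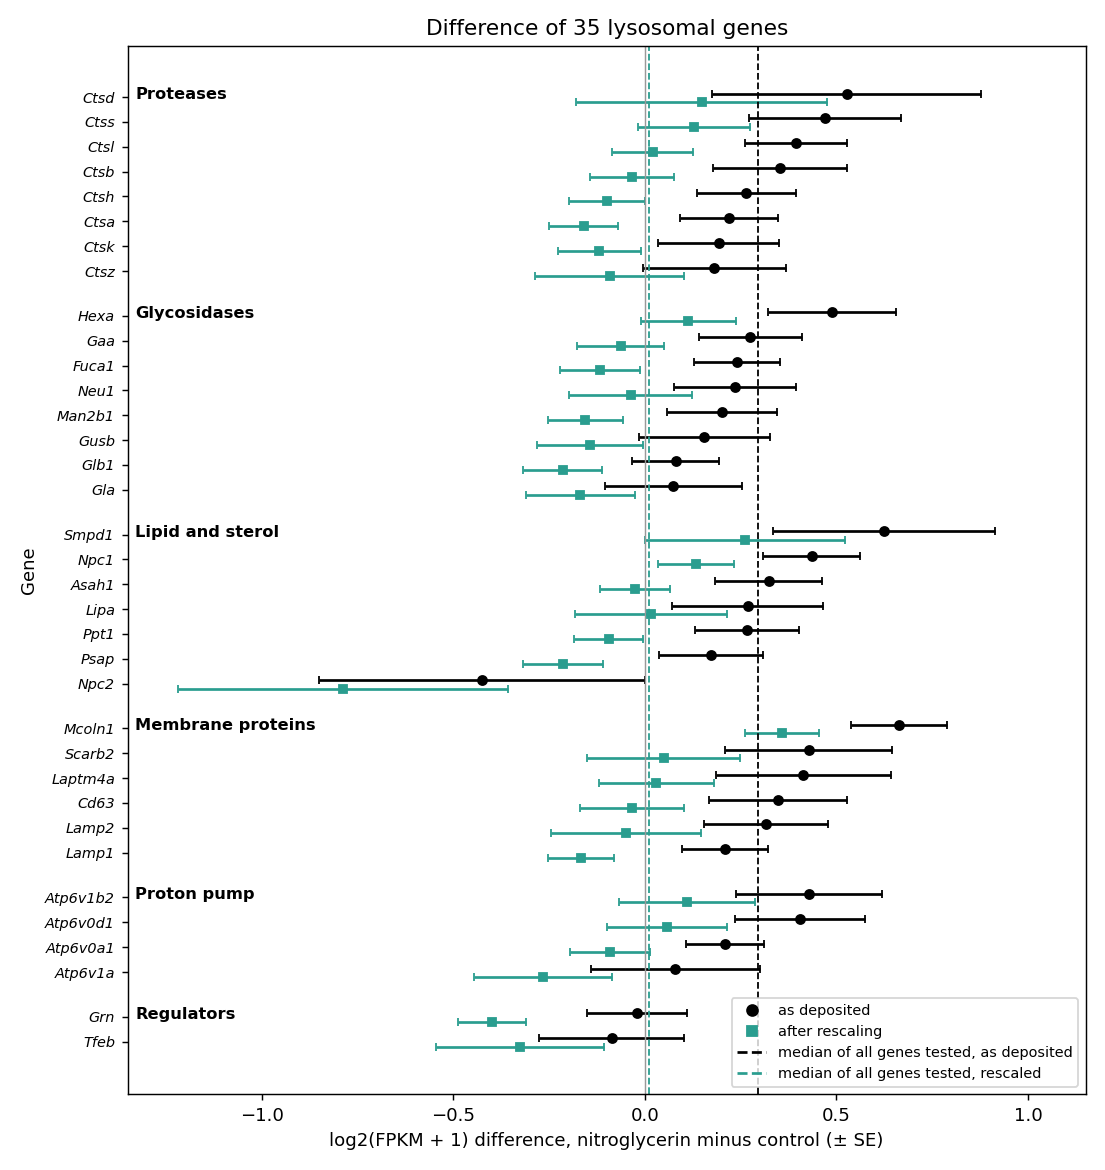
Log2(FPKM + 1) difference, nitroglycerin minus control, with limma SE for the 35 lysosomal genes grouped by role, as deposited and after rescaling; dashed lines mark the medians of all genes tested. Mcoln1 is farthest to the right on both scales, and Npc2 is farthest to the left with the widest error.

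The libraries differed among themselves in the summed level of the lysosomal genes, and these sums depended on how the libraries were scaled. The summed FPKM of the 35 genes was 641, 914.9, 801.7 and 749.4 in the controls and 941.1, 895.3, 1029 and 940.6 after nitroglycerin. Control replicate 1 was low and nitroglycerin replicate 2 fell within the control range. Control replicate 1 held the lowest value for 23 of the 35 genes, and nitroglycerin replicate 3 the highest for 15. After rescaling the sums were 864, 918.6, 881.9 and 828.4 in the controls and 812.5, 839.1, 866.3 and 773.1 after nitroglycerin, and control replicate 1 was lowest for 2 genes. In that library the 100 rows of highest mean over all libraries took 71.4% of the summed FPKM, the largest share of the 8. Its sequence aligned to the genome was 8.20 Gb, within the range of 6.77 to 8.86 Gb over all libraries.

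**Figure D4:**
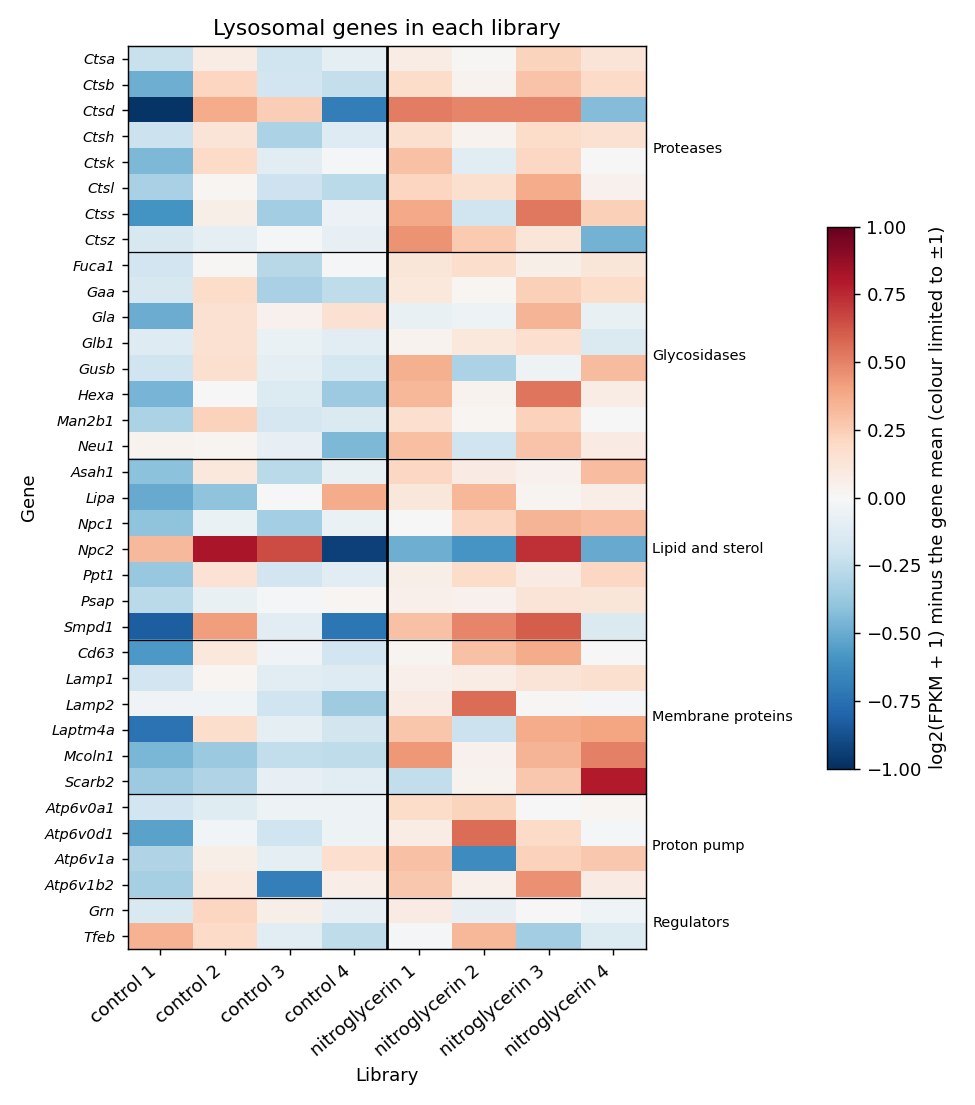
Each of the 35 lysosomal genes in each of the 8 libraries, as the difference of its log2(FPKM + 1) from that gene's mean over all libraries, as deposited. Control replicate 1 is the lowest library for 23 of the 35 genes and nitroglycerin replicate 3 the highest for 15.

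Further genes of the same pathways were read from lists drawn up by function. Of 29 other lysosomal hydrolases, 23 were tested and none passed in either direction; 8 had unadjusted limma p-values under 0.05, all higher, or 34.8% beside 34.1% of all genes. After rescaling the same counts were 1 higher and 3 lower, or 4.35% and 13.0%, beside 5.5% and 6.44% of all genes. Among the 8 as deposited was Aga, which cuts the bond between sugar chains and asparagine in glycoproteins, at 12.2 ± 1.31 and 17.3 ± 2.24 FPKM (SD, n = 4 each; limma adjusted p = 0.0706). Of 20 other membrane proteins, 17 were tested with no call. Unadjusted limma p-values were under 0.05 for 5, all higher, or 29.4% beside 34.1% of all genes. After rescaling there were 1 higher and 1 lower, or 5.88% each, beside 5.5% and 6.44%. The lowest was for Cln3, at 1.90 ± 0.330 and 3.23 ± 0.228 FPKM (limma adjusted p = 0.0543). The median differences of both lists, 0.31 and 0.26, lay near that of all genes.

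Of 16 other vacuolar ATPase genes, 12 were tested and 1 passed, where the background was 1.29%, and 5, or 41.7%, had unadjusted p-values under 0.05, all higher, where it was 34.1%. After rescaling none passed and 1, or 8.33%, had an unadjusted limma p under 0.05 on the higher side, beside 5.5% of all genes. Atp6v0e1, a small subunit of the membrane sector, had 4.36, 3.95, 4.12 and 3.77 FPKM in the controls and 8.58, 5.78, 8.59 and 10.1 FPKM after nitroglycerin. It rose by 0.85 on the log2 scale (SE 0.15, limma adjusted p = 0.0492), without overlap. After rescaling its difference was 0.52 (limma adjusted p = 0.227) and the groups overlapped. As for Mcoln1, nitroglycerin replicate 2 was the nitroglycerin library nearest to the controls.

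Sorting of enzymes to the lysosome was covered by 19 genes, all tested, with no call. Unadjusted limma p-values were under 0.05 for 8, all higher, or 42.1% beside 34.1% of all genes. After rescaling there were 0 of 19 in either direction, beside 5.5% higher and 6.44% lower of all genes. Gnptg and Gnptab, subunits of the enzyme that starts the mannose 6-phosphate tag, had differences of 0.55 and 0.53. Of 21 genes for the TFEB family and mTORC1, 16 were tested with no call. Unadjusted limma p-values were under 0.05 for 4, all higher, or 25.0% beside 34.1%. After rescaling there were 0 higher and 1 lower, the latter 6.25%, beside 5.5% and 6.44%. The 4 as deposited were led by Lamtor2, part of the lysosomal anchor of mTORC1, with a difference of 0.59 (limma adjusted p = 0.0559). The list's median of 0.23 lay below that of all genes. Of 20 autophagy genes, 19 were tested with no call. Unadjusted limma p-values were under 0.05 for 9, all higher, or 47.4% beside 34.1%. After rescaling there were 0 higher and 1 lower, the latter 5.26%, beside 5.5% and 6.44%. Among the 9 was the cargo receptor Nbr1 with a difference of 0.56.

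Of 5 inhibitors of lysosomal proteases, 3 were tested with no call. Unadjusted limma p-values were under 0.05 for 2 of the 3, both higher, or 66.7% beside 34.1% of all genes. After rescaling this held for 1 of the 3, or 33.3% beside 5.5%. Cst3, cystatin C, a secreted inhibitor of cysteine cathepsins, had 204.8, 277.9, 224.3 and 176.8 FPKM in the controls and 404.9, 391.3, 423.6 and 352.7 FPKM after nitroglycerin. The groups were well apart, and the difference of 0.84 (SE 0.18) missed the threshold, with a limma adjusted p of 0.0543. After rescaling the difference was 0.46 (limma adjusted p = 0.311) and the groups still did not overlap. On the same scale the enzymes it inhibits had smaller differences, 0.39 for Ctsl, 0.35 for Ctsb and 0.47 for Ctss; the gap between them was not tested.

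Markers of the cell types in the vessel wall were read beside these values. Of 17 macrophage markers, 14 were tested, 1 passed (background 1.29%) and 6 had unadjusted limma p-values under 0.05, all higher, or 42.9% beside 34.1% of all genes. After rescaling none passed and 2, or 14.3%, had unadjusted limma p-values under 0.05, both higher, beside 5.5% of all genes. The gene that passed as deposited was the scavenger receptor Cd163, at 1.91 ± 0.194 and 4.92 ± 1.48 FPKM (SD, n = 4 each; limma adjusted p = 0.0492, and 0.160 after rescaling). Of the 14, 13 lay above 0 (86.6% of all genes tested), and Lyz2 lay below it. Their median difference was 0.49, against 0.295 for all genes. After rescaling it was 0.20, with 9 above 0 and 5 below. The macrophage markers summed to 66.7 to 131.8 FPKM in the controls and 88.1 to 156.3 FPKM after nitroglycerin, so the sums overlapped. Lyz2 weighed heavily in these sums, with group means of 52.1 and 41.3 FPKM, where the sums averaged 102.1 and 119.5 FPKM. Cd68, Itgam and Marco had no row. Of 10 endothelial markers, 9 were tested and 2 passed as deposited (background 1.29%), Esam and Eng, both higher, and neither passed after rescaling (limma adjusted p = 0.211 and 0.459). The endothelial sums were 40.1 to 65.7 and 69.6 to 81.9 FPKM as deposited, without overlap, and 44.3 to 78.1 and 64.2 to 70.7 after rescaling, with overlap. Macrophages are rich in lysosomes, and the part of cell makeup in the difference of Mcoln1 was not tested.

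Smooth muscle markers, 6 tested of 7 with no call in either direction, summed to 2012 to 2679 and 1256 to 2636 FPKM. In every library this was far above the summed skeletal muscle and red cell markers. Acta2 made up most of each sum, with group means of 2075 and 1602 FPKM. Differences were 0.79, 0.25 and 0.17 for Lmod1, Smtn and Myocd, and -0.74, -0.43 and -0.23 for Cnn1, Acta2 and Myh11. Lmod1 had groups that did not overlap (limma adjusted p = 0.0598). Unadjusted limma p-values were under 0.05 for 1 higher and 1 lower, beside 34.1% and 1.02% of all genes. After rescaling there were 1 higher and 3 lower, beside 5.5% and 6.44%, with no call. Fibroblast markers, 6 tested of 7 with no call, summed to 3642 to 5634 and 3116 to 3196 FPKM. Most of these sums was Col3a1 and Col1a1, with control means of 2382 and 1779 FPKM. The list was split in direction, with 3 above 0 and 3 below. Col1a1, Col3a1 and Lum had differences of -0.61, -0.47 and -0.14, while Dcn, Pi16 and Dpt had 0.80, 0.67 and 0.39. Adipocyte markers summed to 11.6 to 31.3 FPKM in the controls and 24.0 to 155.7 FPKM after nitroglycerin, the high value being nitroglycerin replicate 1, with 4 of 9 tested and no call; the extraction notes in the labels speak of an adipose type, although every sample is labelled aorta. Of 8 skeletal muscle markers, 6 were tested, with 2 above 0 and 4 below. Ckm was called lower (limma adjusted p = 0.0492, and 0.0351 after rescaling, with backgrounds of 0.0616% and 0.1%). Mybpc2 was higher by 0.38 without overlap as deposited, and its groups overlapped after rescaling. Unadjusted limma p-values were under 0.05 for 1 higher and 1 lower, beside 34.1% and 1.02% of all genes. After rescaling there were 0 higher and 2 lower, beside 5.5% and 6.44%. The sums were 27.9 to 38.6 and 20.3 to 28.1 FPKM. Red cell markers, 2 tested of 6 with no call, summed to 38.6 to 89.7 and 32.4 to 73.3 FPKM. No marker with a row was at 0 in all 8 libraries, and Mylpf, Alas2 and Slc4a1 were under 1 FPKM in each.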

How the data were processed

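Gene and lncRNA levels are FPKM as deposited by the authors, per the file headers, in 4 control and 4 nitroglycerin libraries. The lncRNA table also gives coverage per transcript, a deposited signal, whose constant ratio to FPKM gave the aligned bases per library. HISAT2 2.0, StringTie 1.3.0, Bowtie 0.12.2 and the builds Rnor_6.0 and mm8 are named in the submitters' processing notes, without roles. Read counts per gene were not used here, so no count model was run and no counting interval is given.

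Differences were tested with limma 3.58.1 (R 4.3.3; trend, empirical Bayes) on log2(FPKM + 1), which understates the change of low genes, over rows reaching 1 FPKM in 4 or more libraries, adjusted over all 12977. The scripts were tested on simulated data. Rescaling divided each library by its median-of-ratios factor. Where several rows carry a symbol, the row of highest mean was taken, and overlapping or near-identical genes may share reads. Every member is accounted for by role: per-library values are given for members that passed and those of lowest p in each role. For each other list, counts are given with group means, differences or p-values, not always per library, for up to 4 genes of lowest p. The values of 1 gene that this rule would name are not reported here. Values printed for further members, and the order of presentation, were chosen after their values were seen. The members and lists were chosen with earlier results of these data known. Alternatives covered the pseudocount, filter, scaling, replicate block, robust fitting, rows per symbol and leaving out each library. Tables used Python 3.11.15 with pandas 2.3.3 and figures matplotlib 3.10.9.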

Additional observations from a re-analysis of the deposited data

Results flagged for a closer look

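In 5 of the 70 groups of 4 libraries examined (7.14%), 1 library stood far from the other 3, and chance alone flags about 1 in 20 groups. Ctsd was 32.8 FPKM in nitroglycerin replicate 4, where the other 3 lay at 62.9 to 64.1. Npc2 was 26.2 FPKM in nitroglycerin replicate 3, where the others lay at 9.89 to 10.7. Gla was 2.64 FPKM in nitroglycerin replicate 3, against 1.73 to 1.78. Lamp2 was 24.0 FPKM in nitroglycerin replicate 2, against 15.7 to 16.9. Atp6v1a was 4.87 FPKM in nitroglycerin replicate 2, against 9.66 to 10.1. All 5 are nitroglycerin libraries.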

How the results depend on the processing

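The call of Mcoln1 was kept under a stricter filter, robust fitting and rows with an annotated transcript only (the last chosen after seeing the data). The number of lysosomal genes called higher was 0 with a pseudocount of 0.1, without a filter, with FPKM summed per symbol, under either rescaling or quantile normalization, and with the replicate block, and 3 with array weights (also chosen after seeing the data), which added Ctsl and Npc1. Over all genes, the calls were 167 higher and 8 lower; they were 7 and 0 with the pseudocount of 0.1, 19 and 7 with no filter, 1148 and 30 with the stricter filter, 4 and 13 after rescaling, 5 and 10 after quantile normalization, 29 and 1 per symbol, 813 and 15 with annotated rows, and 1883 and 53 with array weights. Lysosomal genes with an unadjusted limma p under 0.05 on the higher side were 7, and were 13 (37.1%, beside 19.0% of all genes) with no filter, 16 (45.7%, beside 38.2%) with array weights and 2 to 18 on leaving out each library. Leaving out each library gave 0 to 1 lysosomal genes called higher, and 4 to 266 higher and 1 to 18 lower over all genes. Same-numbered deviations correlated at 0.133, -0.0111, -0.0117 and 0.121. Differently numbered libraries were not compared in this way, so these values cannot decide whether the replicate numbers pair the libraries. With the replicate block, 0 genes were called in either direction, and 4037 genes and 6 lysosomal genes had unadjusted limma p-values under 0.05.

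The median lysosomal difference was -0.06 after rescaling and -0.016 after quantile normalization. Rescaled differences that changed sign were -0.16 for Ctsa, -0.0327 for Ctsb, -0.10 for Ctsh, -0.12 for Ctsk, -0.0924 for Ctsz, -0.0634 for Gaa, -0.17 for Gla, -0.21 for Glb1, -0.14 for Gusb, -0.0374 for Neu1, -0.16 for Man2b1, -0.12 for Fuca1, -0.21 for Psap, -0.0949 for Ppt1, -0.0259 for Asah1, -0.17 for Lamp1, -0.0497 for Lamp2, -0.0336 for Cd63, -0.27 for Atp6v1a and -0.0905 for Atp6v0a1. After quantile normalization those that changed sign were -4.2e-04 for Ctsa, -0.0235 for Ctsh, -0.11 for Ctsk, -0.12 for Ctsz, -0.0204 for Gaa, -0.20 for Gla, -0.22 for Glb1, -0.14 for Gusb, -0.0610 for Neu1, -0.0755 for Man2b1, -0.0352 for Fuca1, -0.0296 for Ppt1, -0.0159 for Lipa, -0.0540 for Lamp1, -0.20 for Atp6v1a and -0.10 for Atp6v0a1. Both alternatives remove the shift of the median gene by construction. Leaving out each library moved Gla between -0.077 and 0.14, Atp6v1a between -0.0077 and 0.30, Tfeb between -0.21 and 0.014 and Grn between -0.076 and 0.047. The cause of the other changes was not tested. With 4 libraries a group, small differences were not detectable.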

Other observations

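The authors' gene table ties 196 rows to the ontology term lysosome, a list taken up after seeing the data, of which 152 were tested and 22 belong to the 36 genes above. Of the 152, 1 was called higher, beside 1.29% of all genes tested, and none lower, and their median difference was 0.29. The called gene was Calcrl, a receptor component for calcitonin gene-related peptide and adrenomedullin, both vasodilators. It had 1.69, 2.68, 1.68 and 1.82 FPKM in the controls and 4.60, 3.75, 3.48 and 4.18 FPKM after nitroglycerin. The groups did not overlap, and the difference was 0.76 (SE 0.14, limma adjusted p = 0.0492), and 0.48 after rescaling (limma adjusted p = 0.162).

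The lncRNA table ties 2 of its 4686 transcripts to a gene of the set, both to Asah1. MSTRG.7998.1 had 0.677 FPKM in control replicate 2 and was listed at 0 in the others, and MSTRG.7999.1 had 1.48 FPKM in nitroglycerin replicate 4 and was listed at 0 in the others.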
